A study of Mus musculus with 18 samples.

Results

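The genes described here are 41 mouse genes of N-linked glycosylation and hexosamine synthesis, out of 19938 genes measured. They were taken by gene symbol from a list that was fixed with earlier results of these data known. Of the 41, 10 are genes of dolichol and its sugar donors. Another 6 are of assembly on the cytosolic face of the endoplasmic reticulum (ER), and 6 of assembly on its lumenal face. The rest are 10 of oligosaccharyltransferase, 5 of hexosamine synthesis, and 4 of glucose trimming and reglucosylation. All 41 were measured, and 0 had a group mean under the level that marks silent genes here (below).

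RNA came from B16 F10.9-4 cells, a mouse melanoma line, in which doxycycline induces overexpression of LIP. LIP is a truncated form of the transcription factor C/EBPβ, the product of Cebpb, without most of the domain that activates genes. Cells had vehicle or doxycycline alone (0 h), or tunicamycin for 5 or 12 h, in each case without or after doxycycline, which makes 6 groups. Each group held 3 one-colour Affymetrix arrays, 1 from each of 3 independent experiments, and the spread behind every p-value is that between experiments in 1 line. Vehicle arrays of 5 or 12 h were not used here, nor were cells given doxycycline that lack the construct. Tunicamycin therefore cannot be told apart from time in culture, nor LIP from doxycycline.

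N-linked glycosylation attaches a preformed sugar chain to asparagines of proteins that enter the ER. The chain is built on the lipid dolichol, first on the cytosolic and then on the lumenal face of the ER membrane, and oligosaccharyltransferase moves it onto the protein. Glucosidases then trim its glucoses, and a reglucosylating enzyme puts a glucose back on proteins that are not yet folded. Tunicamycin inhibits DPAGT1, the enzyme of the first step, which joins N-acetylglucosamine phosphate from UDP-N-acetylglucosamine to dolichol phosphate. The hexosamine pathway makes that UDP-N-acetylglucosamine from fructose 6-phosphate and glutamine. Proteins that lack their chains fold poorly and set off the unfolded protein response of the ER.

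Levels are the authors' log2 intensities and are not compared between genes. A change is a difference of group means on that log2 scale with its standard error (SE), and a gene is called where limma's Benjamini-Hochberg adjusted p over all 19938 genes was under 0.05. Array medians lay between 6.96 and 7.04, and Pearson r between arrays of a group between 0.997 and 0.999. As a stand-in for silent genes, 1190 olfactory and vomeronasal receptor genes had a median level of 4.75 and a 95th percentile of 6.08. All 7 melanocyte markers (Mitf, Sox10, Tyr, Tyrp1, Dct, Pmel and Mlana) lay above 6.08 on average, as did 4 of 5 fibroblast, 1 of 5 macrophage (Cd68), 1 of 4 endothelial (Cdh5) and 0 of 4 keratinocyte markers. Doxycycline took the level of Cebpb to 11.18 ± 0.137 (SD, n = 3), against 9.33 ± 0.126 in vehicle, a value of the gene that does not tell LIP from the longer isoforms. In RNA from whole cultures, fewer cells of a kind and less RNA per cell cannot be told apart.

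After 12 h of tunicamycin 31 of the 41 members were called against vehicle, 28 higher and 3 lower. Over all genes 27.7% were called, 11.9% higher and 15.8% lower. The members' median change was 0.28, against 0.00 over all genes. After 5 h only Alg5, which rose, and Alg14, which fell, were called, where 9.02% of all genes were (4.08% higher, 4.94% lower). With array weights in the fit the count at 5 h was 11, 10 higher and 1 lower, and the share of all genes in that fit is not given here. Against the 5 h arrays 26 members were called at 12 h, 24 higher and 2 lower, beside 25% of all genes (11.4% higher, 13.6% lower). The comparisons at 5 and 12 h share the vehicle arrays.

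**Figure D1:**
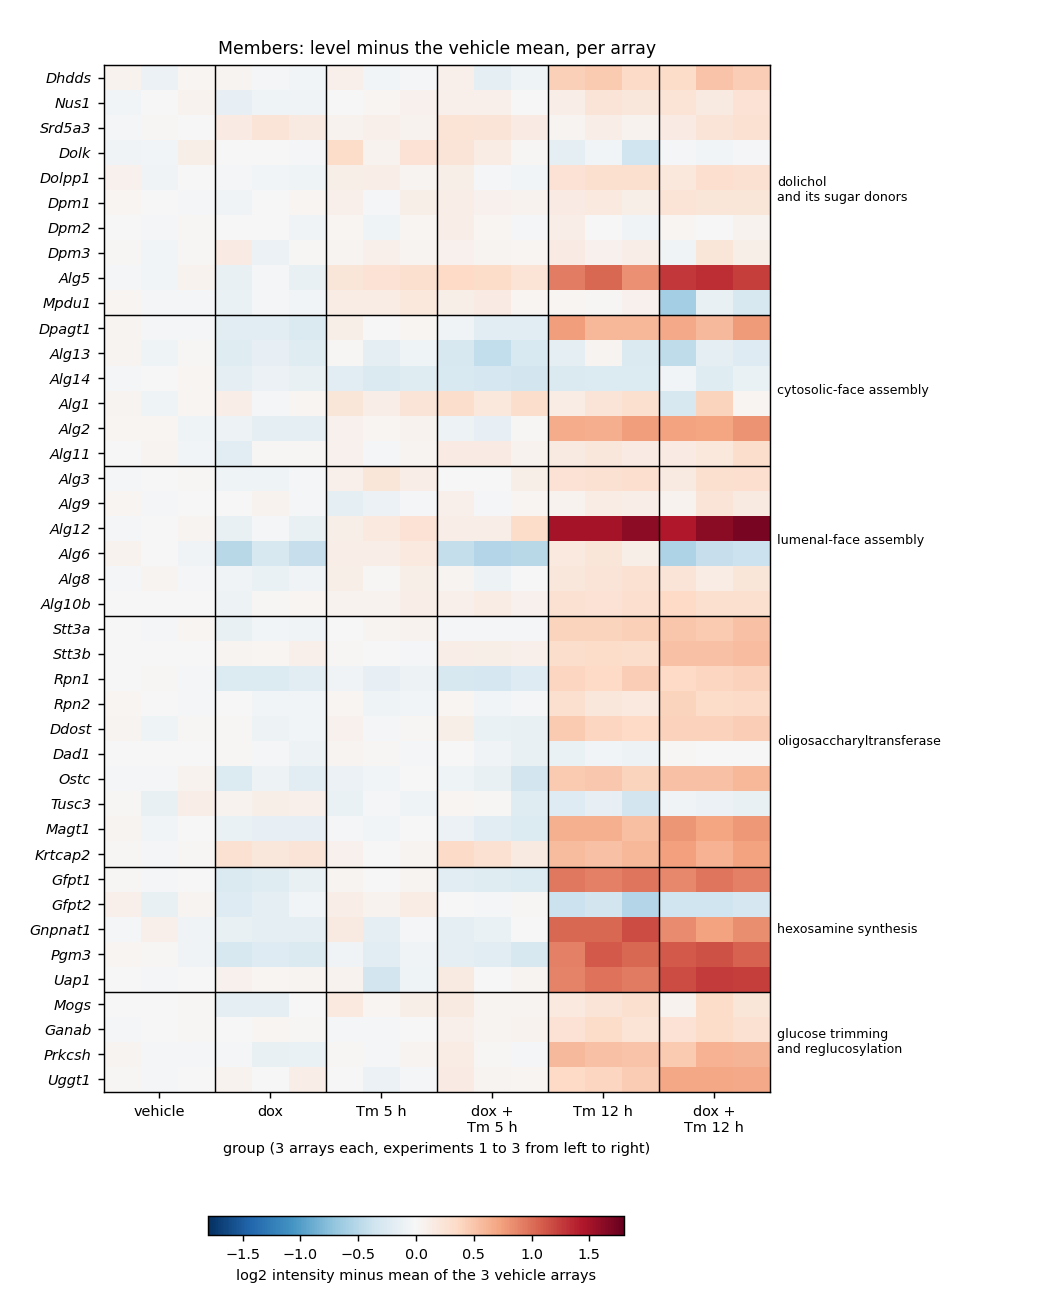
Each row is a member in pathway order and each column an array; colour gives the log2 intensity minus the mean of the 3 vehicle arrays. The 12 h columns are red for most rows (28 members called higher without doxycycline), deepest in Alg12 and the hexosamine genes, while the 5 h columns stay close to the vehicle columns.

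Dpagt1, Alg2, Alg11, Ostc, Tusc3 and Gnpnat1 had no promoter window and were not searched. For the other 35 of the 41 members windows from RefSeq (GRCm38.p6, 250 bases before to 50 after a gene's start site) were at hand. They were searched on both strands for 5 motifs: the ER stress element (CCAAT, then 9 bases, then CCACG), its second form (ATTGG, then 1 base, then CCACG), TGACGTGG of the unfolded protein response, TGATGNAA as in amino acid response sites, and the palindromic C/EBP site TTGCGCAA. The ER stress element was in 0.119% of all 32851 windows and among the members only in that of Alg12, the member with the largest rise. Its second form was in 0.0365% of all windows and among the members only in that of Krtcap2, a subunit of oligosaccharyltransferase. The windows of members held 0 matches to TGACGTGG, TGATGNAA or TTGCGCAA, which were in 0.676%, 3.97% and 0.183% of all windows. A match is a run of letters and no evidence of binding. The Alg12 stretch, chr15:88819319-88819568 on the minus strand, is the 250 bases before the start site, with the match from -220 to -202, and the Krtcap2 stretch, chr3:89246481-89246510 on the plus strand, lies just after the start site of 1 of its 2 windows, with the match from 18 to 28. Both are printed 5′ to 3′ with the matched element in capitals, because they are the only members' windows with any of the 5 motifs.
Alg12: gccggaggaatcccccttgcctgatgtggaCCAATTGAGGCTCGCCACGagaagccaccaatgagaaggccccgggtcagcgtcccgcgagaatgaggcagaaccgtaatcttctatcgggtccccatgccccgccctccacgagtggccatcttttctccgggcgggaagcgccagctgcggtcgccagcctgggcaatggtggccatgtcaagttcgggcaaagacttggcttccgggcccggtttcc
Krtcap2: gggacacggATTGGACCACGgacggggcgt

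Within the dolichol and sugar donor genes, 5 of 10 rose after 12 h of tunicamycin and 0 fell (median change 0.13). Alg5, which makes the dolichyl-phosphate glucose that donates the glucoses of the chain, moved most. Its level was 9.68, 9.65 and 9.77 in vehicle, 9.92, 9.96 and 9.99 after 5 h of tunicamycin, and 10.62, 10.73 and 10.53 after 12 h. All 3 arrays at 5 h lay above all 3 of vehicle, and all 3 at 12 h above those at 5 h. The change was 0.26 ± 0.0563 (SE, adjusted p = 0.00663) at 5 h and 0.93 ± 0.0563 (adjusted p = 3.44e-10) at 12 h, and Alg5 was the only member called higher at both times.

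Dhdds, the catalytic subunit of the enzyme that builds the dolichol chain, read 10.09, 9.92 and 10.06 in vehicle and 10.45, 10.49 and 10.37 after 12 h of tunicamycin. These groups did not overlap, and the change was 0.42 ± 0.0686 (adjusted p = 9.32e-05). Dolpp1, the phosphatase that recycles the dolichyl pyrophosphate left by each transfer, read 9.87, 9.73 and 9.78 in vehicle and 10.05, 10.07 and 10.09 at 12 h. Its 12 h arrays stood above the vehicle arrays by 0.28 ± 0.0513 (adjusted p = 0.000324). Nus1, the partner subunit of Dhdds (0.18), and Dpm1, the catalytic subunit of dolichol-phosphate mannose synthase (0.15), also rose. The Nus1 call was lost without vehicle array 1 (adjusted p = 0.0589), and the Dpm1 call without tunicamycin 12 h array 1 or 2 or vehicle array 2 or 3 (adjusted p up to 0.115).

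The other members of this step were not called at 12 h. Dpm2 (0.02) and Dpm3 (0.11), the small subunits that hold Dpm1 in the membrane, were called in none of the 11 comparisons made. Srd5a3, which reduces polyprenol on the way to dolichol, changed by 0.08 and Mpdu1, which the use of the lumenal donors requires, by 0.04. Dolk, the dolichol kinase, stood at 0.21 after 5 h and -0.19 after 12 h (adjusted p = 0.0983 and 0.0807). It passed in 3 and 5 of the 27 other fits, and without tunicamycin 12 h array 3 the 12 h change was -0.11. The difference between these times was -0.40 ± 0.0767 (adjusted p = 0.000537).

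On the cytosolic face, where the chain is begun, 3 of 6 genes rose at 12 h and 1 fell (median change 0.19). Dpagt1, whose product tunicamycin inhibits, read 10.36, 10.28 and 10.29 in vehicle, 10.42, 10.31 and 10.34 after 5 h, and 11.07, 10.90 and 10.91 after 12 h. The 5 h arrays overlapped those of vehicle, and the 12 h arrays lay above both. The change was 0.05 ± 0.0594 (adjusted p = 0.673) at 5 h and 0.65 ± 0.0594 (adjusted p = 8.15e-08) at 12 h, a 1.57-fold difference.

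Alg2, which adds the mannoses that follow the first one, read 10.16, 10.17 and 10.05 in vehicle and 10.80, 10.78 and 10.87 at 12 h. Its groups lay apart and the change was 0.69 ± 0.0529 (adjusted p = 7.96e-09). Alg11, which adds the last mannoses on this face, read 9.34, 9.40 and 9.29 in vehicle and 9.51, 9.55 and 9.49 at 12 h. Here too the groups lay apart, by a smaller change of 0.17 ± 0.0604 (adjusted p = 0.0407). That call was lost when tunicamycin 12 h array 1, 2 or 3, vehicle array 1 or 3, or tunicamycin 5 h array 3 was left out (adjusted p up to 0.158).

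Alg13 and Alg14 together form the enzyme of the step after Dpagt1, Alg14 as the membrane anchor and Alg13 as the catalytic part. Alg14 read 11.34, 11.37 and 11.41 in vehicle, 11.17, 11.11 and 11.16 after 5 h, and 11.12, 11.13 and 11.13 after 12 h. Every tunicamycin array lay below every vehicle array. The fall was already there at 5 h (-0.23 ± 0.0453, adjusted p = 0.00304) and was of similar size at 12 h (-0.25 ± 0.0453, adjusted p = 0.000272), and Alg14 was the only member called lower at both times. Alg13 changed by -0.13 at 12 h and Alg1, the first mannosyltransferase, by 0.21; neither was called.

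On the lumenal face 4 of 6 genes rose at 12 h and 0 fell (median change 0.26). The mannosyltransferase Alg12 read 10.42, 10.45 and 10.51 in vehicle, 10.57, 10.63 and 10.72 after 5 h, and 11.96, 11.96 and 12.08 after 12 h. Its 5 h arrays lay just above those of vehicle, without a call (0.18 ± 0.0705, adjusted p = 0.136), and its 12 h arrays far above both. The 12 h change of 1.53 ± 0.0705 (adjusted p = 8.32e-12), or 2.90-fold, was the largest of the 41.

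Alg12 lies head to head with Creld2, the gene of an ER stress protein: their start sites on chromosome 15 are 328 bases apart and they are read in opposite directions, so the Alg12 stretch printed above lies wholly between them. Creld2 is no member and was looked at after its values had been seen. It read 11.44, 11.31 and 11.42 in vehicle, 11.54, 11.29 and 11.46 after 5 h, and 13.01, 12.98 and 12.97 after 12 h of tunicamycin. Like Alg12 it was not called at 5 h (0.04) and was far above vehicle at 12 h (1.59 ± 0.0586, adjusted p = 3.08e-13). Unlike those of Alg12, its 5 h arrays overlapped those of vehicle. With doxycycline alone Creld2 was called lower than vehicle (-0.38, adjusted p = 0.000260), and Alg12 was not called.

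Alg3, which adds the first lumenal mannose, read 12.15, 12.19 and 12.21 in vehicle and 12.45, 12.46 and 12.49 at 12 h. Alg10b, which adds the last glucose, read 11.12, 11.10 and 11.11 in vehicle and 11.39, 11.36 and 11.41 at 12 h. Both moved apart from vehicle by 0.28 (SE 0.0502 and 0.0450, adjusted p = 0.000241 and 7.64e-05). Alg8, which adds the middle glucose, rose by 0.24. Alg6, which adds the first glucose (0.17, adjusted p = 0.0503), and the mannosyltransferase Alg9 (0.11, adjusted p = 0.178) did not pass, though Alg6 passed in 11 of the 27 other fits made.

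Of the 10 oligosaccharyltransferase genes 8 rose at 12 h and 1 fell (median change 0.40). The enzyme exists in a form with the catalytic subunit STT3A, which works on proteins as they enter the ER, and a form with STT3B, which treats sites that were missed. Both catalytic subunits rose, Stt3a by 0.41 ± 0.0420 and Stt3b by 0.32 ± 0.0390. Magt1, an oxidoreductase subunit of the STT3B form, read 11.69, 11.58 and 11.64 in vehicle, 11.61, 11.58 and 11.63 after 5 h, and 12.28, 12.27 and 12.17 after 12 h. Its 5 h arrays overlapped those of vehicle, and its 12 h arrays lay above both, by 0.61 ± 0.0491 (adjusted p = 1.68e-08).

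Tusc3, the alternative to Magt1 in the STT3B form, went the other way. It read 9.56, 9.41 and 9.66 in vehicle and 9.31, 9.39 and 9.22 at 12 h, a change of -0.24 ± 0.0705 (adjusted p = 0.0161). Its groups lay apart by little, and the call was lost without vehicle array 1 or 3 or without tunicamycin 12 h array 3 (-0.23 to -0.18, adjusted p up to 0.109).

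Krtcap2, a subunit of the STT3A form and the member with the second form of the ER stress element, read 12.49, 12.44 and 12.50 in vehicle and 13.04, 13.00 and 13.07 at 12 h. All 3 arrays at 12 h lay above vehicle, by 0.56 ± 0.0525 (adjusted p = 1.11e-07). Ostc, the other subunit particular to the STT3A form, read 12.10, 12.09 and 12.20 in vehicle and 12.60, 12.62 and 12.54 at 12 h, a change of 0.45 ± 0.0613 (adjusted p = 1.05e-05). Of the subunits that both forms share, Ddost (0.41), Rpn1 (0.39) and Rpn2 (0.22) rose, and Dad1 did not pass (-0.09, adjusted p = 0.195).

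Hexosamine synthesis had the largest median change of the 6 steps at 12 h, 0.94, with 4 of 5 genes higher and 1 lower. Gfpt1, the glutamine:fructose 6-phosphate amidotransferase that sets the rate of the pathway, read 10.40, 10.35 and 10.36 in vehicle, 10.42, 10.37 and 10.42 after 5 h, and 11.32, 11.28 and 11.34 after 12 h. The 5 h arrays overlapped those of vehicle, and the 12 h arrays lay 0.94 ± 0.0454 higher (adjusted p = 1.55e-11), a 1.92-fold difference. Gfpt2, which encodes a second form of the same enzyme, read 7.28, 7.07 and 7.24 in vehicle and 6.81, 6.87 and 6.67 at 12 h. Its groups did not overlap and it fell by 0.41 (SE 0.0629, adjusted p = 4.22e-05).

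Gnpnat1, which acetylates glucosamine 6-phosphate, read 10.15, 10.27 and 10.13 in vehicle and 11.22, 11.22 and 11.36 at 12 h. Pgm3, the mutase of the next step, read 8.84, 8.84 and 8.75 in vehicle and 9.72, 9.91 and 9.84 at 12 h. Both lay apart from vehicle and had about doubled in intensity, Gnpnat1 by 1.08 ± 0.0735 (2.12-fold, adjusted p = 1.57e-09) and Pgm3 by 1.01 ± 0.0573 (2.02-fold, adjusted p = 1.29e-10). Uap1, whose enzyme makes the UDP-N-acetylglucosamine itself, rose by 0.94 ± 0.0715 (adjusted p = 7.74e-09). Gnpnat1 was the only member with 2 probe sets of its own, and these gave 1.10 and 1.08.

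All 4 genes of glucose trimming and reglucosylation rose at 12 h (median change 0.34). Prkcsh, the beta subunit of glucosidase II, read 10.91, 10.82 and 10.84 in vehicle and 11.43, 11.38 and 11.37 at 12 h, apart by 0.54 ± 0.0543 (adjusted p = 2.96e-07). Uggt1, the folding sensor that puts glucose back, read 11.20, 11.16 and 11.17 in vehicle and 11.54, 11.57 and 11.64 at 12 h, apart by 0.40 ± 0.0484 (adjusted p = 2.37e-06). Ganab, the catalytic subunit of glucosidase II, read 11.34, 11.39 and 11.40 in vehicle and 11.63, 11.70 and 11.62 at 12 h, apart by 0.28 ± 0.0415 (adjusted p = 3.22e-05). In each of these the lowest 12 h array stood above the highest vehicle array. Mogs, glucosidase I, which removes the outermost glucose, rose by 0.23 (adjusted p = 0.0113), a call lost without tunicamycin 12 h array 3 (adjusted p = 0.0540).

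**Figure D2:**
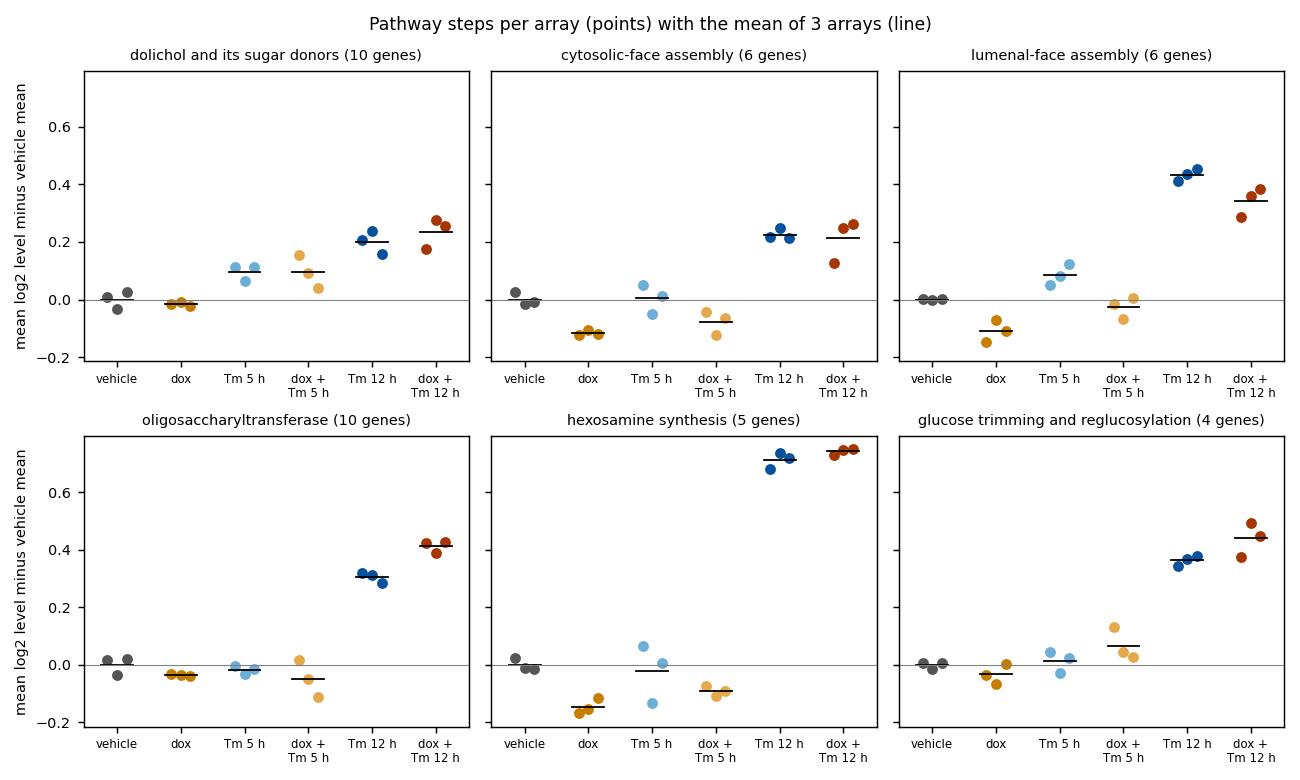
Each panel is a pathway step; points are the mean over its genes in an array, given as log2 level minus the vehicle mean, and lines are the means of 3 arrays. The hexosamine genes stand highest after 12 h of tunicamycin (0.68, 0.74 and 0.72 without doxycycline), and the 5 h arrays without doxycycline lie between -0.13 and 0.12 in every step.

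Averaged over its genes, hexosamine synthesis stood 0.68, 0.74 and 0.72 above the vehicle mean at 12 h, the lumenal face 0.41, 0.43 and 0.45, and trimming 0.34, 0.37 and 0.38. Oligosaccharyltransferase stood at 0.32, 0.31 and 0.28, the cytosolic face at 0.22, 0.25 and 0.21, and dolichol and its donors at 0.21, 0.24 and 0.16. Hexosamine synthesis stood well apart from the rest, and the arrays of the last 2 steps overlapped. This order differs from that of the medians, where oligosaccharyltransferase and trimming lay above the lumenal face. With both agents at 12 h, again against the vehicle mean, the hexosamine genes stood highest (0.73, 0.75 and 0.75). The lumenal face (0.29, 0.36 and 0.38) then lay below oligosaccharyltransferase (0.42, 0.39 and 0.43). It had also lain below it with doxycycline alone (-0.15, -0.07 and -0.11 against -0.03, -0.04 and -0.04). This order is one of levels, and the part of the tunicamycin changes in it was not tested. From doxycycline alone to both agents at 12 h the median change was 0.30 for the lumenal face and 0.47 for oligosaccharyltransferase. Without doxycycline the mean of the lumenal face at 12 h rests in large part on Alg12, since the other 5 genes of that step changed by 0.11 to 0.28.

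With doxycycline before any tunicamycin 7 of 41 members (17.1%) were called against vehicle, 2 higher (4.88%) and 5 lower (12.2%). Over all genes 10.7% were called (4.89% higher, 5.82% lower). The members' median was -0.07, against 0.02 over all genes. With array weights the count was 11, and the share of all genes in that fit is not given here. Lower were Alg6 (-0.40 ± 0.0611, adjusted p = 0.000251), Pgm3 (-0.26), Rpn1 (-0.23), Dpagt1 (-0.22) and Gfpt1 (-0.20), and higher were Krtcap2 (0.24) and Srd5a3 (0.18). Dpagt1 read 10.11, 10.11 and 10.05 with doxycycline, all below the vehicle arrays, but its call was lost without vehicle array 1 or 3 or doxycycline array 1 or 3 (adjusted p up to 0.103), and that of Srd5a3 without vehicle array 1 or 3 or doxycycline array 2 (adjusted p up to 0.103).

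Alg6 was the only member called lower with doxycycline at all 3 times; it is given by array on account of its values, as are Mpdu1 and Uap1 below. It read 10.67, 10.59 and 10.54 in vehicle and 10.09, 10.32 and 10.18 with doxycycline. After 5 h of tunicamycin it read 10.72, 10.72 and 10.77 without and 10.17, 10.07 and 10.10 with doxycycline, and after 12 h 10.77, 10.82 and 10.70 without and 10.04, 10.18 and 10.21 with it. At each time every doxycycline array lay below every array without it. The differences were -0.40, -0.62 ± 0.0611 (adjusted p = 1.26e-06) and -0.62 ± 0.0611 (adjusted p = 8.42e-07) at 0, 5 and 12 h.

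Some markers of cell types moved as well. With doxycycline 5 of 7 melanocyte markers fell and 0 rose before tunicamycin (median change -0.32), beside 5.82% of all genes lower and 4.89% higher. At 5 h 6 of these markers fell and at 12 h 6, beside 5.21% and 7.77% of all genes. The mean log2 level of the melanocyte markers was 11.94 to 11.98 in the vehicle arrays, 11.65 to 11.67 with doxycycline, and 11.37 to 11.43 with doxycycline and 12 h of tunicamycin. Among markers of other cells 1 of 5 fibroblast markers (Col1a2, -0.31) and 1 of 5 macrophage markers (Cd68, -0.43) fell with doxycycline and 0 rose. The mean level of the fibroblast markers was 6.64 to 6.67 in the vehicle arrays and 6.63 to 6.68 with doxycycline; that of the macrophage markers, of which 4 lay under the 6.08 of silent genes, was 5.81 to 5.86 and 5.75 to 5.78. After 12 h of tunicamycin without doxycycline 2 of the 7 melanocyte markers fell and 0 rose (mean level 11.86 to 11.92), beside 15.8% and 11.9% of all genes. Col1a2 then rose by 0.26 (fibroblast mean 6.65 to 6.88) and Cd68 fell by 0.72 (macrophage mean 5.66 to 5.78). The part of these shifts in the members' values was not tested.

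After 12 h of tunicamycin under doxycycline 31 members were called against doxycycline alone, 29 higher and 2 lower, beside 29.9% of all genes (13.4% higher, 16.6% lower), with a median of 0.32 against -0.02 over all genes. The 28 members that rose at 12 h without doxycycline all rose with it. Alg9 joined them (0.15, adjusted p = 0.0490), but passed in only 9 of the 27 other fits. Over all genes 11.9% were called higher without doxycycline and 13.4% with it, and the share called higher in both was not counted. Gfpt2 fell again (-0.19, adjusted p = 0.0299; lost without doxycycline array 2 or 3 or the array of doxycycline and 12 h tunicamycin 1 or 2). Mpdu1, not called without doxycycline, fell under it (-0.28, adjusted p = 0.0123) and read 10.30, 10.38 and 10.37 with doxycycline and 9.80, 10.29 and 10.13 with doxycycline and 12 h of tunicamycin. The lowest of these Mpdu1 values is that of experiment 1, without which the change was -0.14 (adjusted p = 0.0728). Alg14, which fell at 12 h without doxycycline, changed by 0.00 under it (adjusted p = 0.974), and its interaction of 0.25 ± 0.0641 missed the threshold (adjusted p = 0.0514) but passed in 5 of the 27 other fits. Tusc3 did not pass under doxycycline (-0.19, adjusted p = 0.0537) but did so in 12 of the other fits.

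After 5 h under doxycycline 3 members were called, beside 12.1% of all genes (6.54% higher, 5.56% lower): Alg5 (0.41 ± 0.0563, adjusted p = 6.24e-05) and Alg12 (0.28) were higher and Alg14 (-0.17) lower. Alg5 read 9.56, 9.66 and 9.57 with doxycycline and 10.05, 10.03 and 9.95 after 5 h of tunicamycin, with no overlap. The Alg12 call was lost without doxycycline array 1 or 3 or the third array of doxycycline and 5 h tunicamycin (adjusted p up to 0.0742), and that of Alg14 without array 2 or 3 of either group (adjusted p up to 0.0742). The count was 5 without array 1 or 2 of both agents at 12 h, and also with the dimmest genes left out, with a repeated quantile normalization or with a variance trend. From 5 to 12 h under doxycycline 29 members were called, 27 higher and 2 lower (26.3% of all genes, 10.9% higher and 15.4% lower).

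**Figure D3:**
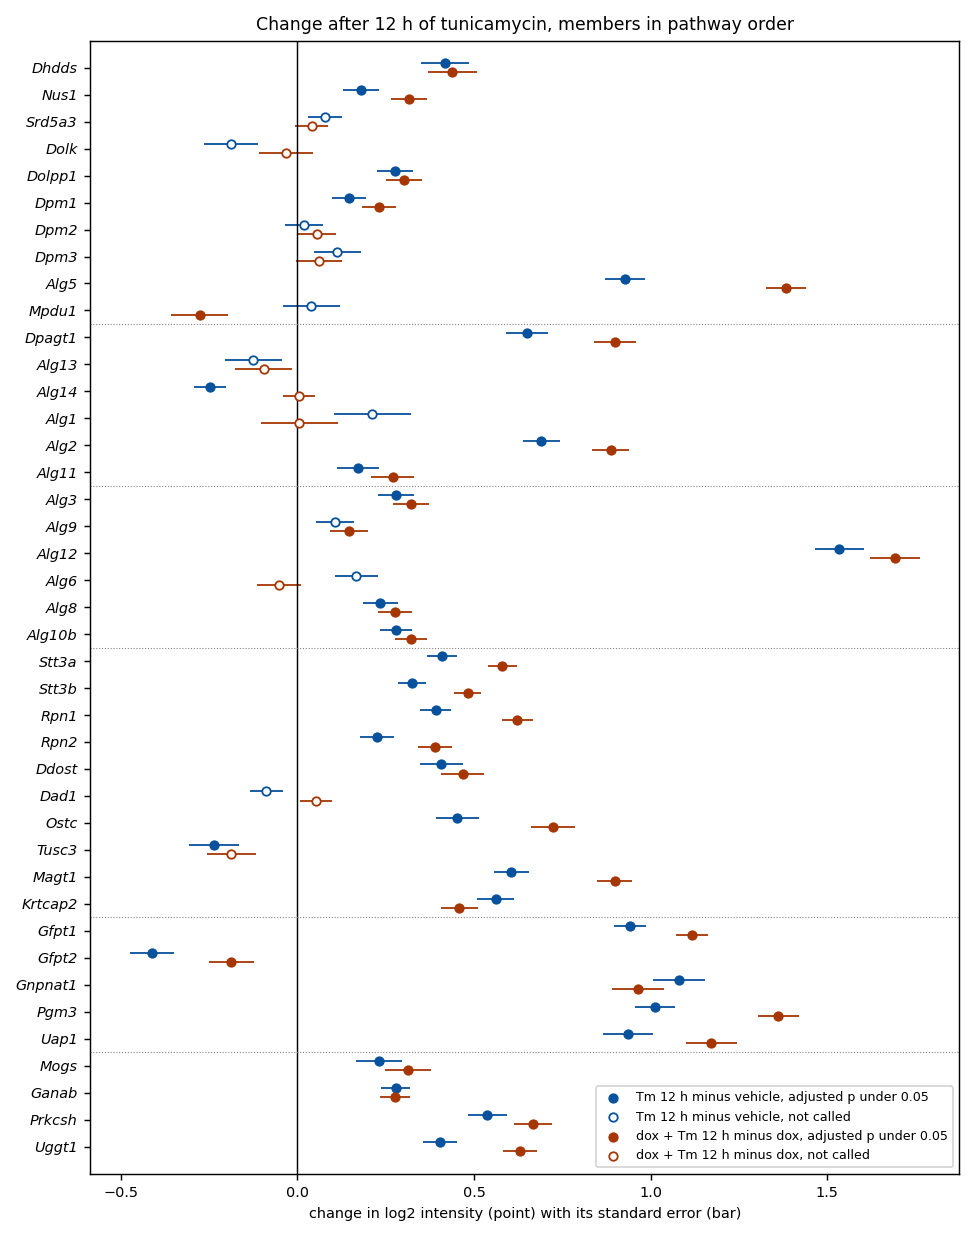
Points are changes in log2 intensity after 12 h of tunicamycin without (blue) and with (brown) doxycycline, bars their standard errors, filled points those called; dotted lines part the 6 steps. The 28 members called higher without doxycycline are filled in both colours, and Alg5, Pgm3 and Magt1 are the 3 whose gap between the colours was called.

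The 12 h changes were compared directly by the interaction, the change under doxycycline minus the change without. Over all genes 1.84% were called (0.993% above 0 and 0.848% below) and among the members 3, all with a larger rise under doxycycline. Alg5 rose by 1.38 ± 0.0563 under doxycycline and by 0.93 without, an interaction of 0.46 ± 0.0796 (adjusted p = 0.00434). It read 10.97, 11.03 and 10.94 with both agents, above the 10.62, 10.73 and 10.53 of 12 h tunicamycin alone, a difference of 0.36 ± 0.0563 (adjusted p = 0.000168). The Alg5 interaction kept its call in all 27 other fits.

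Pgm3 rose by 1.36 under doxycycline and by 1.01 without, an interaction of 0.35 ± 0.0811 (adjusted p = 0.0314). Its arrays read 8.52, 8.58 and 8.55 with doxycycline and 9.91, 9.96 and 9.87 with both agents, so it began below vehicle and ended in a range that overlapped 12 h of tunicamycin alone (difference 0.09, adjusted p = 0.393). Magt1 read 11.52, 11.49 and 11.48 with doxycycline and 12.43, 12.35 and 12.42 with both agents, a rise of 0.90 against 0.61 without doxycycline and an interaction of 0.29 ± 0.0695 (adjusted p = 0.0355). Its 3 arrays with both agents lay above the 12 h arrays without doxycycline by 0.16 (adjusted p = 0.0384). Of the 18 fits that left out an array, the interaction call was lost in 9 for Pgm3 (0.30 to 0.36) and in 8 for Magt1 (0.26 to 0.31), with adjusted p up to 0.0889 and 0.104. Both calls went without vehicle array 1, any of the 3 doxycycline arrays, tunicamycin 12 h array 3 or array 1 of both agents at 12 h, which left Alg5 alone. That of Pgm3 also went without vehicle array 2, tunicamycin 12 h array 1 or array 2 of both agents, and that of Magt1 without vehicle array 3 or array 3 of both agents. The count of 3 became 5, 6 and 9 with the dimmest genes left out, array weights and a variance trend.

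The interaction was positive in 33 of the 41 members (median 0.10, against -0.02 over all genes). An unadjusted p under 0.05 was found in 18 of the 41, Dpagt1 among them, and in 2461 of all 19938 genes. Dpagt1 rose by 0.90 under doxycycline and by 0.65 without (interaction 0.25 ± 0.0841, adjusted p = 0.178). Its arrays read 10.11, 10.11 and 10.05 with doxycycline and 11.00, 10.89 and 11.08 with both agents, which overlapped those of 12 h tunicamycin alone (difference 0.03). At 5 h limma called 0 members for an interaction, where 0.0301% of all genes were called, and 0 members were called in any other fit. There 1 of the 41 had an unadjusted p under 0.05, beside 1651 of all 19938 genes.

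**Figure D4:**
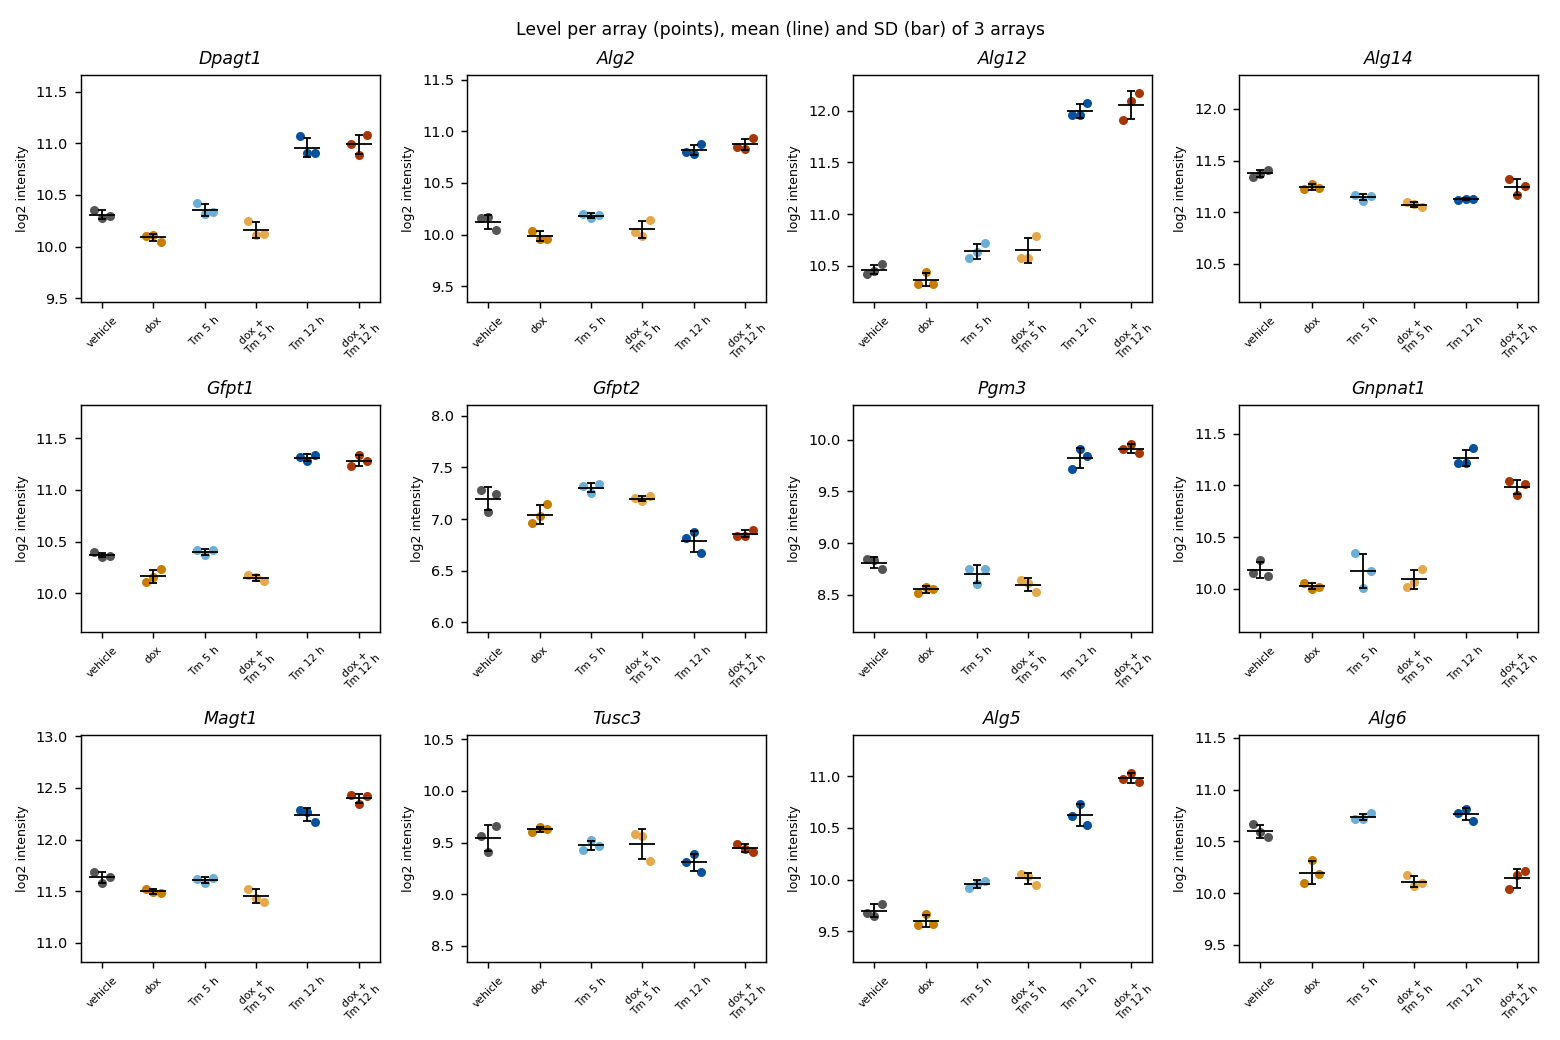
Each panel is a member; points are the 3 arrays of a group in log2 intensity, lines and bars their mean and SD, and every panel spans the same range of 2.2 log2 units. Alg12, Gfpt1, Pgm3 and Gnpnat1 leave the vehicle range at 12 h in both doxycycline states, Gfpt2, Tusc3 and Alg14 lie lower at 12 h without doxycycline, and Alg6 is lower in each doxycycline group.

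Set against each other at the same time of tunicamycin, doxycycline made a difference in 7 members at 5 h (1 higher, 6 lower, beside 12% of all genes, 6.76% higher and 5.21% lower) and in 8 at 12 h (5 higher, 3 lower, beside 14.7% of all genes, 6.95% higher and 7.77% lower). At 5 h Krtcap2 was higher (0.22) and Alg6, Alg13 (-0.26), Gfpt1 (-0.25), Dpagt1 (-0.19), Rpn1 (-0.18) and Magt1 (-0.16) lower. Fitting only the groups compared gave 2 calls, equal array medians 4 and array weights 12, and leaving out doxycycline array 1, vehicle array 3, tunicamycin 5 h array 3 or array 2 of both agents at 5 h gave 4. Alg6 and Gfpt1 kept their calls in all 27 other fits. The loss of 1 array ended the call of Alg13 in 8 of 18 fits (adjusted p up to 0.176), Dpagt1 in 6 (0.149), Magt1 in 10 (0.178), and Krtcap2 without array 1 of both agents (0.0569). Equal array medians also moved the share of higher genes among all called at 5 h from 56.5% to 68%, and at 12 h from 47.2% to 57.5%.

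At 12 h Alg5 (0.36), Uap1 (0.29), Uggt1 (0.29), Stt3b (0.21) and Magt1 (0.16) were higher with doxycycline. Lower were Alg6 (-0.62), Mpdu1 (-0.39, and -0.25 without array 1 of both agents) and Gnpnat1 (-0.28), which read 11.22, 11.22 and 11.36 after 12 h of tunicamycin alone and 11.04, 10.91 and 11.02 with doxycycline. Gnpnat1 thus stood lower in all 3 experiments while Uap1, in the same pathway, stood higher (10.30, 10.38 and 10.35 against 10.59, 10.67 and 10.65). The Gnpnat1 call was lost without the second array of both agents or the third of 12 h tunicamycin (-0.24 to -0.23, adjusted p up to 0.0736), and that of Magt1 without tunicamycin 12 h array 2 or 3, vehicle array 3, or array 1 or 3 of both agents (adjusted p up to 0.168). With a variance trend 14 members were called at 12 h. For 26 of the 41 members doxycycline was called at none of the 3 times. Over all genes 10.7%, 12% and 14.7% were called at 0, 5 and 12 h, and the share called at none was not counted.

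Neighbouring pathways, from lists made with earlier results of these data known, were counted in the same fit after 12 h of tunicamycin. In that comparison 11.9% of all genes were called higher and 15.8% lower, and under doxycycline 13.4% and 16.6%. ER lectins, mannosidases and deglycosylating enzymes, which read and clear the N-glycans of ER proteins, rose in 12 of 13 genes and fell in 0 (median 0.48), led by the cargo receptor partner Mcfd2 (0.82), the ER-associated degradation lectin Os9 (0.71) and Edem1 (0.71), which directs misfolded glycoproteins to degradation. Golgi genes that mature the N-glycan went the other way, 12 of 19 lower and 2 higher (median -0.25), led by the sialyltransferases St3gal4 and St6gal1 (each -0.89) and the branching enzyme Mgat5 (-0.70). For these 2 lists the same 12 h comparison under doxycycline gave 12 higher and 0 lower (median 0.62), and 3 higher and 11 lower (median -0.24).

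GPI anchor synthesis also draws on N-acetylglucosamine and dolichol-phosphate mannose. Of its 20 measured genes 9 rose (45%) and 3 fell (15%, near the 15.8% of all genes), with a median of 0.10. Under doxycycline 9 rose and 2 fell (median 0.13). The largest rises without doxycycline were in Piga (1.31), a subunit of the enzyme of the first step, Pign (0.67) and Pigo (0.41). In the making of GDP-mannose, Gmppb (1.44), the pyrophosphorylase, and its regulatory partner Gmppa (0.89) rose, while the phosphomannomutase Pmm1 (-0.64) fell, 2 of 5 measured genes in each direction, as under doxycycline. Among genes of UDP-N-acetylglucosamine salvage and use 4 of 7 rose and 0 fell (median 0.18), with Ogt, which puts N-acetylglucosamine on cytosolic and nuclear proteins (0.43), and Oga, which takes it off (0.22), the largest, followed by the deacetylase Amdhd2 (0.18). Under doxycycline the same list had 3 higher and 3 lower (median -0.02). Of the small oligosaccharyltransferase subunits Tmem258 rose (0.96) and Ost4 fell (-0.21), 2 of 3 genes, and under doxycycline 1 was called in each direction. Hspa5, the ER chaperone BiP, rose by 0.69 ± 0.0499 (adjusted p = 3.81e-09).

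**Figure D5:**
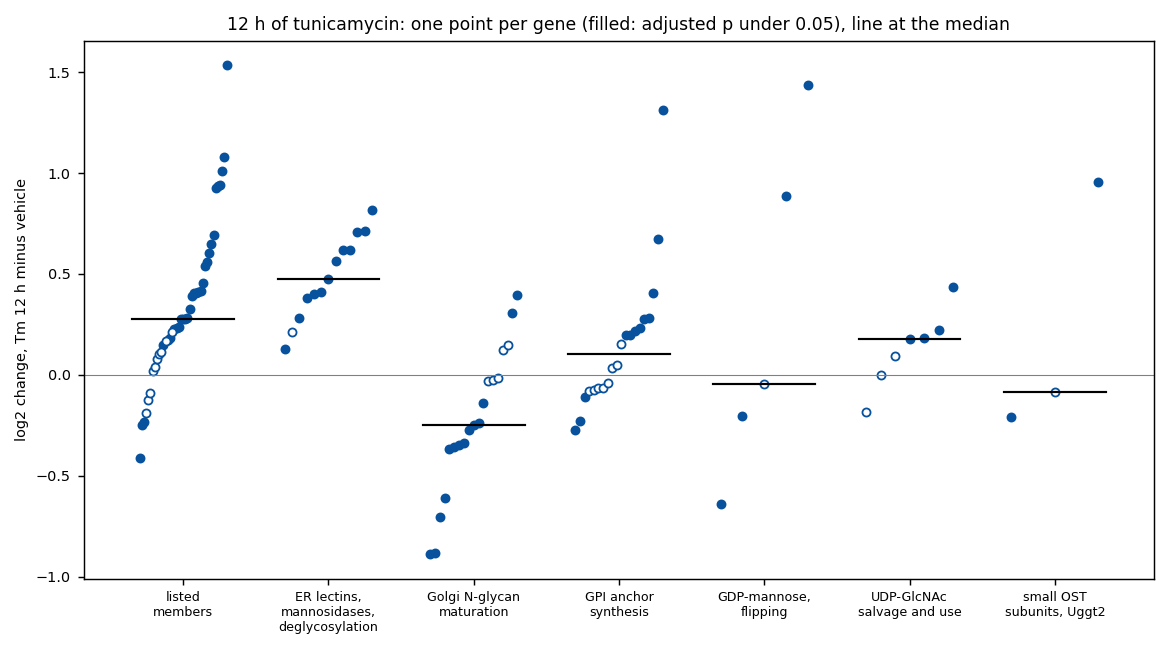
Each point is a gene and its log2 change after 12 h of tunicamycin against vehicle, filled where called, with a line at the median of each list. The ER lectin list lies above 0 throughout (median 0.48), most Golgi genes lie below it (median -0.25), and Gmppb (1.44) and Piga (1.31) stand highest in their lists.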

How the data were processed

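The authors deposited log2 intensities of 35557 probe sets on 18 arrays, for which the submitters' processing notes name RMA and Partek, with no version; a build was not given in the sources used here. RMA understates changes of dim probe sets. Of the probe sets 21789 carried 1 gene symbol, 1621 several and 12147 none; the brightest single-symbol probe set stood for a gene. All values were fitted as deposited with limma 3.58.1 (R 4.3.3) on group means over all arrays (12 residual and 5.99 prior degrees of freedom), and p-values were adjusted by Benjamini-Hochberg over 19938 genes at a threshold of 0.05. With 3 arrays a group, the number of arrays limits precision.

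The members, steps and lists were chosen with earlier results of these data known. Values by array are given for Dpagt1, for up to 3 members per step with the largest called rise and fall after 12 h of tunicamycin, and for members with a called interaction; Alg6, Mpdu1, Uap1 and Creld2 were added after their values were seen. Of each neighbouring list up to 3 called genes with the largest change are named.

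Per the labels' design text, each independent experiment included every condition, and the replicate numbers were read as those experiments. They served as a pairing in the block alternative and in the directions by experiment. The main fit did not use this pairing. The values show little of it: over 45 same-experiment pairs the deviations from group means had a median r of 0.0379 (-0.503 to 0.496), with 14 over 0.1. Alternatives were the experiment as a block, only the compared groups, repeated quantile normalization, equal array medians, leaving out the dimmest 30% of genes, averaged probe sets, array weights, a variance trend with robust estimation, each array left out and, added after seeing the data, both arrays of largest residual spread left out. The fitting script was also run on simulated data in which 200 of 19938 genes were changed. It called 17% of 12 h interactions of 0.3 and 86% of those of 0.6, and 2.83% of its calls were false. For 12 h of tunicamycin against vehicle it called 63% and 100%, with 7.91% of calls false. In the data 27.7% of all genes were called in that comparison, so these shares hold for a setting with fewer changed genes. An interaction near 0.3 that was not called is not shown to be absent, since only 17% of such interactions were called.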

Additional observations from a re-analysis of the deposited data

Results flagged for a closer look

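For each result here the change after 12 h of tunicamycin under doxycycline differed from the change without it, by the interaction in limma. The rise was larger under doxycycline for 3 members: Alg5 by 0.46 (adjusted p = 0.00434), Pgm3 by 0.35 (adjusted p = 0.0314) and Magt1 by 0.29 (adjusted p = 0.0355), each in 3 of 3 experiments. Only the Alg5 call survived the loss of every single array.

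Of the other genes described, Creld2 (0.47, adjusted p = 0.00479), the ER chaperone Calr (0.23, adjusted p = 0.0446) and Mcfd2 (0.31, adjusted p = 0.0390) also rose more under doxycycline. Creld2 began lower, by -0.38 with doxycycline alone against vehicle (adjusted p = 0.000260). With both agents at 12 h it was not called against tunicamycin alone (0.08, adjusted p = 0.447). Amdhd2, which deacetylates N-acetylglucosamine 6-phosphate, rose by 0.18 without doxycycline (adjusted p = 0.0307) and fell by 0.34 with it (adjusted p = 0.000183), a difference of -0.52 (adjusted p = 0.00280). Cebpb, already raised by doxycycline, rose by 0.34 on the log2 scale under it and by 0.96 without (interaction -0.62, adjusted p = 0.00247). These rises start from unlike levels, so the interaction does not tell which gain in intensity was larger. The melanocyte markers Sox10 (-0.32, adjusted p = 0.0179) and Pmel (-0.48, adjusted p = 0.00154) had interactions below 0.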

How the results depend on the processing

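Array weights gave 11 members called in place of 7 for doxycycline against vehicle, 11 in place of 2 after 5 h of tunicamycin, 12 in place of 7 for doxycycline at 5 h, and 6 in place of 3 for the 12 h interaction. A variance trend gave 5 in place of 3 after 5 h under doxycycline, 14 in place of 8 for doxycycline at 12 h, and 9 for the interaction. Leaving out the dimmest genes gave 5 after 5 h under doxycycline and 5 for the interaction, and repeated quantile normalization gave 5 in the first of these. For doxycycline at 5 h, only the groups compared gave 2 and equal array medians 4. With 1 array left out, counts ran from 2 to 5 after 5 h under doxycycline, from 4 to 8 for doxycycline at 5 h, and from 1 to 4 for the 12 h interaction. Alg1 for doxycycline at 12 h, not called, ran from -0.34 to 0.0040 over these fits and changed sign without array 1 of both agents. The cause of these differences was not tested. Here and above, counts from other fits are of members only, without the share of all genes called in the same fit. They do not tell a shift of the members from one of all genes.

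With the replicate block, the paired fit, 31 members were called after 12 h of tunicamycin, 2 after 5 h, 7 for doxycycline, 30 in place of 31 after 12 h under doxycycline, 6 and 10 in place of 7 and 8 for doxycycline at 5 and 12 h, and 3 for the 12 h interaction. It ended the calls of Alg9 (12 h under doxycycline) and Alg13 (doxycycline at 5 h) and no other call of a member. Without the 2 arrays of largest residual spread 30 members were called after 12 h of tunicamycin and 2 for the 12 h interaction. Of the calls after 12 h of tunicamycin, 26 of 31 held in all 27 other fits without doxycycline and 28 of 31 under it. With 3 arrays a group, small changes and dim genes are the least certain.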
